A study of Homo sapiens with 3 samples.

Results

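The comparison described here sets the array of THP-1 cells carrying the label of 8 days of PMA differentiation against the array carrying the label of 3 days. These are 2 of the 3 arrays of the study, and all 54613 probe sets that are not manufacturer's controls, of 54675 in the table, were compared. THP-1 is a long-established cell line from a human monocytic leukemia, and PMA (phorbol myristate acetate) is an activator of protein kinase C that turns it into an adherent, macrophage-like cell. Each condition had a single array, so no difference below has a replicate check, a standard error or a p-value.

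The cells were kept in RPMI-1640 with 10% foetal bovine serum and were seeded in 96-well plates. The 3-day cells had 200 nM PMA for 24 h and then 3 days in PMA-free medium. The 8-day cells had 200 nM PMA for 72 h and then 5 days in PMA-free medium. The labels therefore count time differently: the 3 days leave out the 24 h in PMA, and the 8 days include the 72 h. Both were given medium with 2% serum for the last 16 h before 200 ng of total RNA per sample was labelled. The third array held undifferentiated cells, which had no PMA and for which the protocol leaves unclear whether serum was lowered. Its values are given as a starting level only. Between both PMA cultures the hours in PMA, the days since PMA and the total time all differed together, so their parts in any difference cannot be told apart. In cells measured in bulk, fewer cells carrying a transcript and less of that transcript per cell cannot be told apart either.

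As background, PMA stands in for diacylglycerol at protein kinase C and, through it, drives AP-1 and NF-kB signalling. THP-1 cells answer by leaving the cell cycle, attaching to the plate, and switching from the genes of a myeloid progenitor to those of a macrophage: scavenger and Fc receptors, lysosomal proteases, matrix-degrading enzymes and chemokines. A rest without PMA after the pulse is widely used to let the acute response to the drug fade while the macrophage features remain.

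Signals are MAS5 intensities on a linear scale, with each array scaled to a trimmed mean of 1000. Where 3 signals follow a gene they are those of the undifferentiated, the 3-day and the 8-day array, in that order. A log2 ratio is the 8-day signal over the 3-day signal, so a positive ratio means higher at 8 days. Signals under a floor of 149.8, the median of all values, were raised to it; the probe set with the highest signal stood for each gene, and calls of higher or lower were made at a ratio of 2-fold. The only error that could be measured is that among the probe sets of a gene: in the 5501 genes with several, their log2 ratios had a pooled SD of 0.272, which was 0.34 in the dimmest genes, taken in 3 equal classes by signal, and 0.212 in the brightest. This SD covers no difference between cultures or labelling reactions.

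The arrays were alike in general quality. The share of probe sets above the floor was 51.4%, 48.5% and 50.1% on the undifferentiated, 3-day and 8-day arrays. The 3′ to 5′ signal ratio of the actin control probe sets was 1.36 on the 3-day and 1.49 on the 8-day array, and that of GAPDH was 1.1 and 1.12. The 24 probe sets for bacterial poly-A control RNAs had a median log2 ratio of -0.29, with 22 of them below 0. They are repeated probe sets for only a few RNAs (dap, lys, phe and thr), so they are not independent readings. Scaling the arrays to those controls moved the median of all genes from 0.035 to 0.310, and the part of this offset in the results was not tested. Of the 33 macrophage marker genes on the array, 29 were above the floor at 3 days and 30 at 8 days, with a summed signal of 407100 and 361500 against 138900 in undifferentiated cells. Some markers of other cell types were above the floor too: 3 of 9 erythroid and megakaryocyte markers were above the floor at 3 days and 5 at 8 days, with summed signals of 4646 and 6797, and 6 and then 5 of 13 lymphoid markers, with 2830 and 5164. PPBP (3249 and 5557) and GNLY (1296 and 3359) made up much of these sums. Of 12 granulocyte markers 6 were above it on each PMA array, and of 17 fibroblast, epithelial and endothelial markers 6 and then 8, with summed signals of 27250 and 26110 against 22950 in undifferentiated cells.

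The 3-day and 8-day cells were close. Of 13051 genes tested, 179 were called higher at 8 days, which is 1.37% of the genes tested, and 125 were called lower, which is 0.958%. Counted by probe set, 369 of 29044 were higher (1.27%) and 280 were lower (0.964%). Only MMP3 and RADX were higher by 4-fold or more, and only ADGRE1 was lower by as much. The middle of the distribution was narrow: the 25th and 75th percentiles of the log2 ratio were -0.17 and 0.24, and the 1st and 99th were -0.99 and 1.10. Higher calls made up 58.9% of all calls under the deposited scaling and 92.6% under scaling to the poly-A controls (525 higher and 42 lower), so the balance of directions depends on the scaling.

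**Figure D1:**
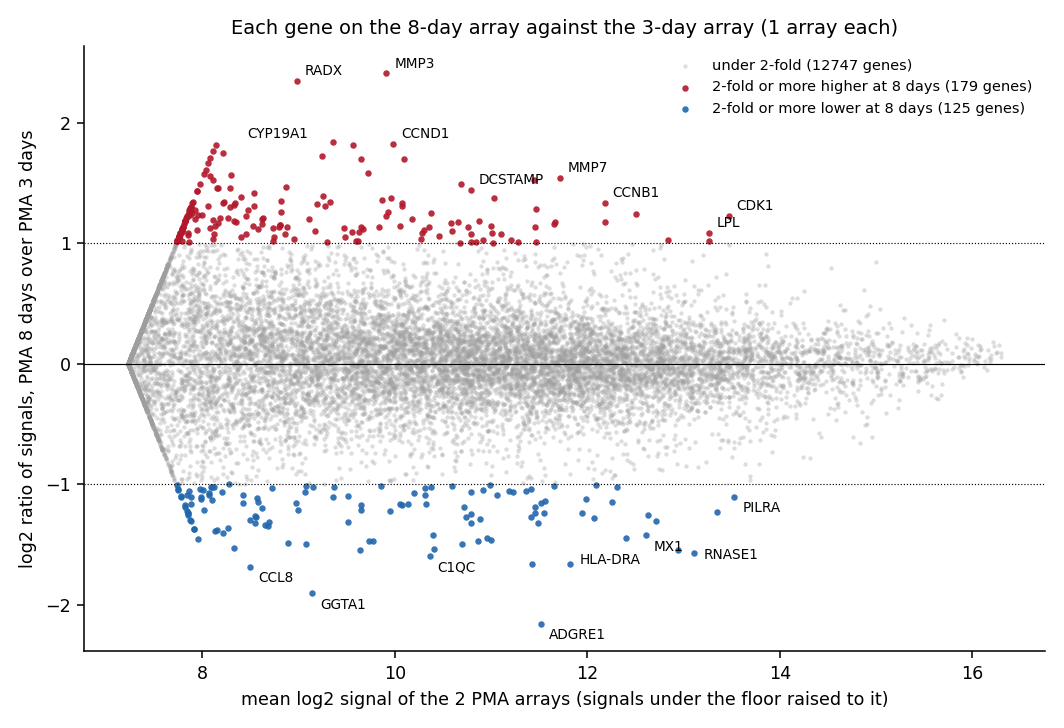
Each point is 1 of the 13051 genes tested, with the mean log2 signal of both PMA arrays on the horizontal axis and the log2 ratio of the 8-day over the 3-day array on the vertical axis; dotted lines mark 2-fold. The 179 genes called higher are red and the 125 called lower are blue, and the slanted edge at the left holds genes whose dimmer signal was raised to the floor.

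Called genes were both bright and dim, but the excess of higher over lower calls lay among the dimmer genes. Of the genes called higher, 132 were above the floor on both PMA arrays and 47 were at the floor at 3 days; for the genes called lower these numbers were 109 and 16. Among the 7506 genes whose brighter PMA signal was above 1000, 66 were higher (0.879%) and 64 were lower (0.853%). Over all genes tested these shares were 1.37% and 0.958%. A second-brightest probe set could be read for 113 called genes. It went the same way for 98 of them, reached 2-fold for 32, and went the other way or stood at 0 for 15. For 26 of the 113 the second probe set was at the floor on 1 PMA array, so its ratio is a bound; of the other 87, 76 went the same way, 27 reached 2-fold and 11 did not go the same way.

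**Figure D2:**
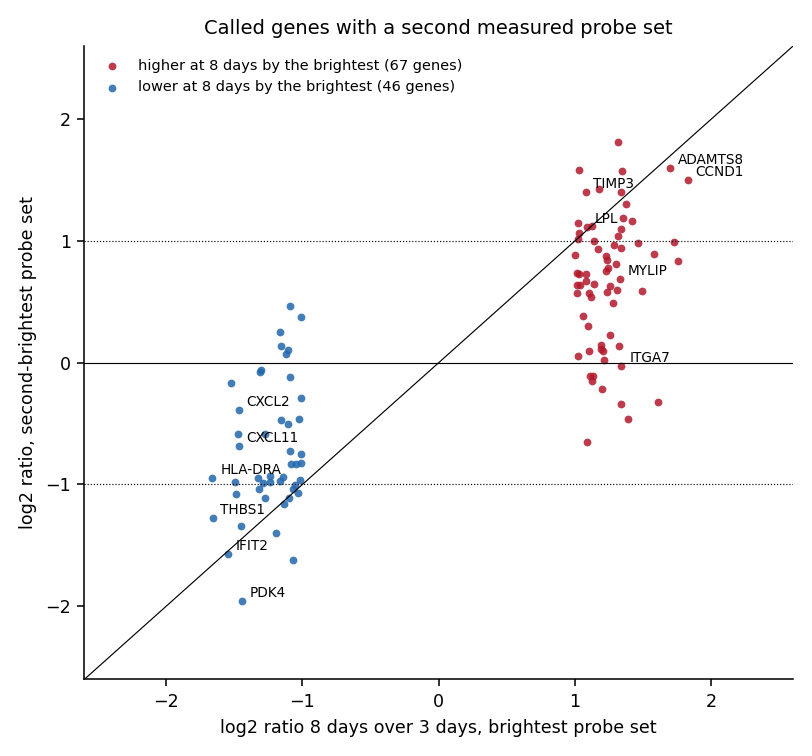
For the 113 called genes with a second measured probe set, the log2 ratio of the 8-day over the 3-day array is plotted for the brightest probe set (horizontal) and the second-brightest (vertical); the diagonal marks equal ratios and dotted lines mark 2-fold. Most points keep their side of 0, 58 of 67 red and 40 of 46 blue, but many lie closer to 0 on the vertical axis.

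Genes of dividing cells had higher signals at 8 days than at 3 days. In the list of G2/M and mitosis genes, 51 of 52 members had a ratio above 0, where 54.7% of all genes tested did. Of the 52, 15 were called higher (28.8%, against 1.37% of all genes tested) and none lower. Their median log2 ratio was 0.875, against 0.035 for all genes. On both PMA arrays the list remained below its level in undifferentiated cells, with a median log2 ratio of -1.54 at 3 days and -0.57 at 8 days. Of 25 tested G1 cyclins and cell cycle inhibitors, the 3 D-type cyclins, which start the cycle, were called higher and CDKN1C lower. The genes of DNA replication had smaller ratios, nearly all positive, with no member called.

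CCNB1, the mitotic cyclin B1, had signals of 10133, 2921 and 7376. Its kinase partner CDK1 had 23218, 7404 and 17378. BUB1, a kinase of the spindle checkpoint, had 6837, 1811 and 4416. In each of these the 3-day array was the lowest of the 3 and the 8-day array lay between it and the undifferentiated level, with log2 ratios of 1.34, 1.23 and 1.29. The motor protein gene KIF23, needed to separate daughter cells, had signals of 2510.0, 860.5 and 2047 (log2 1.251). CENPF, a kinetochore protein, had 13309, 3777 and 8933 (log2 1.24). ASPM, which acts at spindle poles, and DLGAP5, which stabilises spindle microtubules, both had a log2 ratio of 1.18. The same order of the 3 arrays held for CENPM, a centromere protein outside the list, with 1926, 447 and 1449 (log2 1.70).

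The proliferation marker MKI67 did not reach 2-fold, at 4819.5, 1581 and 2739 (log2 0.79, with its 4 probe sets from 0.79 to 1.09). Nor did FOXM1 and MYBL2, transcription factors that drive mitotic genes, at log2 0.97 and 0.73. PLK1, a mitotic kinase, was the exception, at 551, 193 and 155 (log2 -0.32), close to the floor on both PMA arrays. Many members lay just under 2-fold: 42 of 52 passed it under that poly-A scaling. The median of the list ranged from 0.841 to 1.169 over the alternative processings.

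Of 42 tested genes of the G1/S and replication list, 41 had ratios above 0 and none passed 2-fold, with a median log2 ratio of 0.455. CDC45, part of the replicative helicase, had the largest at 2267, 549 and 981 (log2 0.84). Its partners in the helicase had MCM7 at 0.66, MCM3 at 0.64 and MCM5 at 0.61, and the sliding clamp gene PCNA had 12851, 6381 and 9457 (log2 0.57). CDT1, which licenses origins, was the exception at -0.23. Genes of ribosome biogenesis, which also serve growth, had a median of 0.25 with 25 of 29 above 0 and none called, whereas the genes of the cytoplasmic ribosomal proteins themselves had a median of -0.013.

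Of the 25 tested G1 cyclins and cell cycle inhibitors, 3 were called higher (12%) and 1 lower (4%), against 1.37% and 0.958% of all genes tested. The median log2 ratio of that list was 0.132 and ranged from -0.035 to 0.375 over the alternative processings. The D-type cyclins, which link growth signals to the cycle, were the 3 called higher. CCND1, cyclin D1, had signals of 307, 538 and 1908, and its 2 probe sets gave log2 ratios from 1.498 to 1.83. It was the highest on the 8-day array and was already above the undifferentiated level at 3 days, unlike the mitotic genes. CCND3 had 5429, 2158 and 4825 (log2 1.16), so that the 8-day signal was near the undifferentiated one. CCND2 had 562, 145 and 315, at the floor at 3 days, which makes its ratio at least 2.10-fold. Only 1 of its 4 probe sets was above the floor on a PMA array. Among the inhibitors, CDKN1C (p57) was called lower at 531, 2769.8 and 1338 (log2 -1.05). CDKN1A (p21) had 1601, 6941 and 9286, a ratio of 0.42, and so kept its raised level on both PMA arrays. MXD1, which opposes MYC, had 475, 3224 and 1898 (-0.77), and MYC itself 9225, 1767 and 2453 (0.47).

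**Figure D3:**
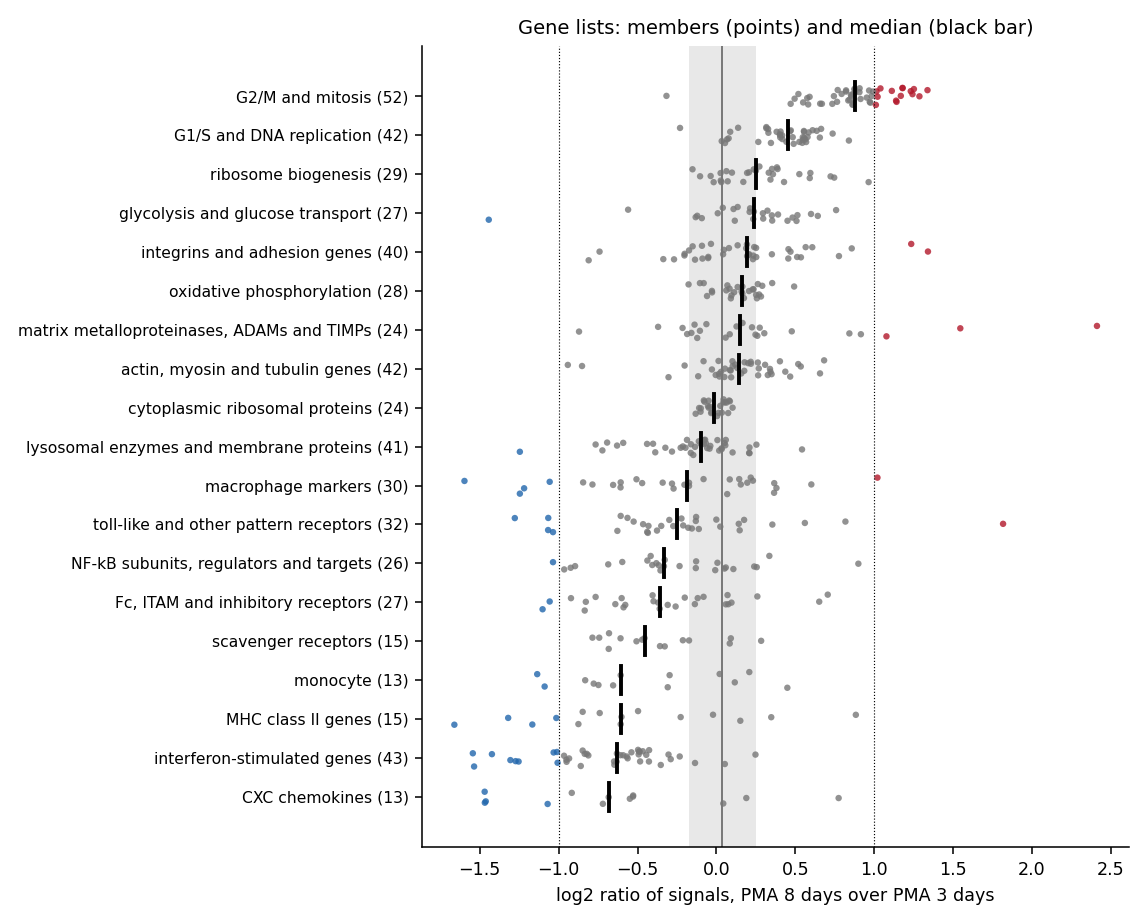
Each row is a gene list with its number of tested genes; points are the log2 ratios of members, 8 days over 3 days, red or blue where 2-fold was passed, and the black bar is the median. The grey band spans the 25th to 75th percentile of all genes tested (-0.17 to 0.24): the G2/M list lies to its right with a median of 0.875, and the interferon-stimulated and CXC chemokine lists to its left with medians of -0.631 and -0.683.

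Interferon-stimulated genes had lower signals at 8 days in 41 of 43 members tested. These are the antiviral genes that type I interferon switches on. As a list they stood above the undifferentiated level on both PMA arrays, with a median log2 ratio of 1.639 at 3 days and 0.914 at 8 days. None of the 43 was below that level at 3 days, and 5 were at 8 days. Of the 43, 9 were called lower (20.9%, against 0.958% of all genes tested) and none higher. The median log2 ratio of 8 over 3 days was -0.631. The median lay between -0.734 and -0.337 over the alternative processings, and 4 members passed 2-fold downward under the poly-A scaling.

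IFIT2, an inhibitor of viral RNA translation, had signals of 1050.4, 13462 and 4616, and both of its probe sets gave log2 ratios near -1.54. IFI27 had 467, 2311 and 797 (-1.54). MX1, a GTPase that traps viral nucleocapsids, had 2017, 10193 and 3800.5 (-1.42). Each was highest at 3 days and at 8 days had come back part of the way, so that the 8-day signal was still above the undifferentiated one. IFITM1, which blocks virus entry at the membrane, differed: with 9537, 10527 and 4256 (-1.31) it was near its starting level at 3 days and below it at 8 days. IFI44L had 511, 2647 and 1095 (-1.27) and TRIM22, a ubiquitin ligase, 1623, 9792 and 4107 (-1.254). OASL at -1.03, MX2 at -1.01 and RIGI, the RNA sensor, at -1.01 just passed 2-fold, although the 3 probe sets of RIGI ran from -1.01 to 0.67.

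Some well-known members missed 2-fold by little and others by more. OAS1, OAS2 and OAS3 had ratios of -0.539, -0.591 and -0.445, and BST2 had -0.233. ISG15, the ubiquitin-like modifier, had 3154, 18469 and 9453 (-0.97), IFIT1 had 1219.7, 18254 and 9552 (-0.93) and RSAD2 (viperin) had 1181, 3676 and 1901 (-0.95). HERC5, the ligase that attaches ISG15, was the member with the highest ratio at 515, 1049.8 and 1245 (0.25), and SAMD9L was at 0.05. The regulators IRF7 and IRF9 were at -0.85 and -0.14. Targets that answer mainly to interferon gamma were mixed. Of 17 in that list only CXCL10 and CXCL11 were called, both lower (11.8%, against 0.958% of all genes tested). GBP1 had 31.8, 9291 and 8137 (-0.19), GBP2 0.03 and TAP1 0.06. That list had a median of -0.17, which turned to 0.124 under the poly-A scaling.

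Start regions of these genes are shown because their members moved together, and they were chosen after the values were seen. The interferon-stimulated response element contains GAAA, any 2 bases, and GAAA. In RefSeq windows (GRCh38.p14) of 250 bases before to 50 bases after a start, on either strand and counting overlaps, it was present in 31 of 47 windows of the tested list members (66%), against 3.57% of all 35116 windows. By gene this was 26 of 35 members that the table holds, 4 of 5 called and 22 of 30 not called. Among all genes tested the element was in 2.98% of windows and for 4.01% of genes. The list was made of interferon-stimulated genes, so this count describes the list and not the difference between the arrays. The stretches below lie upstream of every start listed for the gene, run 5′ to 3′ on the gene's strand, and have the matched letters in capitals; TTTC, 2 bases, TTTC is the same element on the opposite strand. They come from chr14:94110616-94110662 for IFI27, chr11:313988-314021 for IFITM1 and chr1:78620272-78620396 for IFI44L, all on the plus strand.
IFI27: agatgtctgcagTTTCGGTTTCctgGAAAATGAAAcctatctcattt
IFITM1: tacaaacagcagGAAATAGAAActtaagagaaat
IFI44L: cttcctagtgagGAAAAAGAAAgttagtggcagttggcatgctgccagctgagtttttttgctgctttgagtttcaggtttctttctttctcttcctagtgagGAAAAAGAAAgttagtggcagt

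The same count was made for the G2/M list with TTTGAA, the core of the cell cycle homology region found at many mitotic promoters. TTTGAA or its reverse complement TTCAAA was present in 35 of 56 windows of tested members (62.5%), against 15.2% of all windows. By gene it was found for 32 of 45 members, 11 of the 15 called and 21 of the 30 not called. Among all genes tested it was in 11% of windows and for 14.3% of genes. The stretches come from chr15:69414282-69414311 for KIF23, chr10:60778158-60778187 for CDK1 and chr1:37692481-37692510 for CDCA8 on the plus strand, and chr1:197146765-197146794 for ASPM on the minus strand. A match describes the sequence and says nothing of which factor was bound in these cells.
KIF23: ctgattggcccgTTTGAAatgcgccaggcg
CDK1: gagtataataaaTTTGAActgtgccaatgc
CDCA8: gtgactgtggagTTTGAAttgggtggcggt
ASPM: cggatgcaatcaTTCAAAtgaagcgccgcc

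Chemokines of the CXC family attract neutrophils and T cells. At 8 days 4 of 13 tested members were called lower (30.8%, against 0.958% of all genes tested) and none higher, with a median log2 ratio of -0.683. Under the poly-A scaling 3 members were lower and 1 higher, with a median of -0.390. CXCL10 had signals of 208, 3398 and 1234 (-1.46) and CXCL11 68.9, 1409.6 and 509 (-1.47, with a second probe set at -0.69). Both recruit T cells through CXCR3 and both are interferon targets. The neutrophil chemokines CXCL2 and CXCL1 had 271, 3105 and 1122 (-1.47) and 303, 1706 and 813 (-1.07). All of them were highest at 3 days and remained above the undifferentiated array at 8 days. CXCL8 (interleukin-8) had 1006, 6570.1 and 4491 and a ratio of -0.55, short of 2-fold. PPBP, a platelet chemokine, ran the other way at 4.49, 3249 and 5557 (0.77).

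CC chemokines were divided. Of 12 tested genes in their list, 2 were called higher (16.7%) and 2 lower (16.7%), against 1.37% and 0.958% of all genes tested. CCL8, a monocyte attractant, had 142, 647 and 201 (-1.69), which made it high only on the 3-day array. CCL24 had 242, 309.7 and 51.2, under the floor at 8 days and so at least 2.07-fold lower. By contrast CCL1 had 28.1, 229 and 553 (1.27), and CCL2 (MCP-1) had 257, 84.1 and 329, under the floor at 3 days and at least 2.20-fold higher at 8 days. CCL5, which had gained most of its signal by 3 days, was at 2201, 17494 and 19390.0 (0.15).

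Of 24 cytokines tested, 2 were called lower (8.33%) and none higher, against 0.958% and 1.37% of all genes tested. TNFSF10 (TRAIL), which can kill tumour cells, had 2047, 2805 and 1119 (-1.33). Its other probe sets gave -0.95 and -0.77, short of 2-fold, and were highest in undifferentiated cells. TNFSF13B (BAFF), a B cell survival factor, had 3814, 1915 and 853 (-1.17) and so was lowest at 8 days. IL1B had 889, 1977 and 3069 (0.64), TNF 417, 569.9 and 530.1 (-0.10) and IL10 18.4, 491 and 363 (-0.44), none of them past 2-fold. NF-kB subunits, inhibitors and targets had a median of -0.331 with 18 of 26 below 0, but only CLEC4E was called, and under the poly-A scaling the median was -0.037. SOD2, the mitochondrial superoxide dismutase, was at 1039, 4143 and 2183 (-0.92), and NFKBIA, which encodes the feedback inhibitor, at -0.37.

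**Figure D4:**
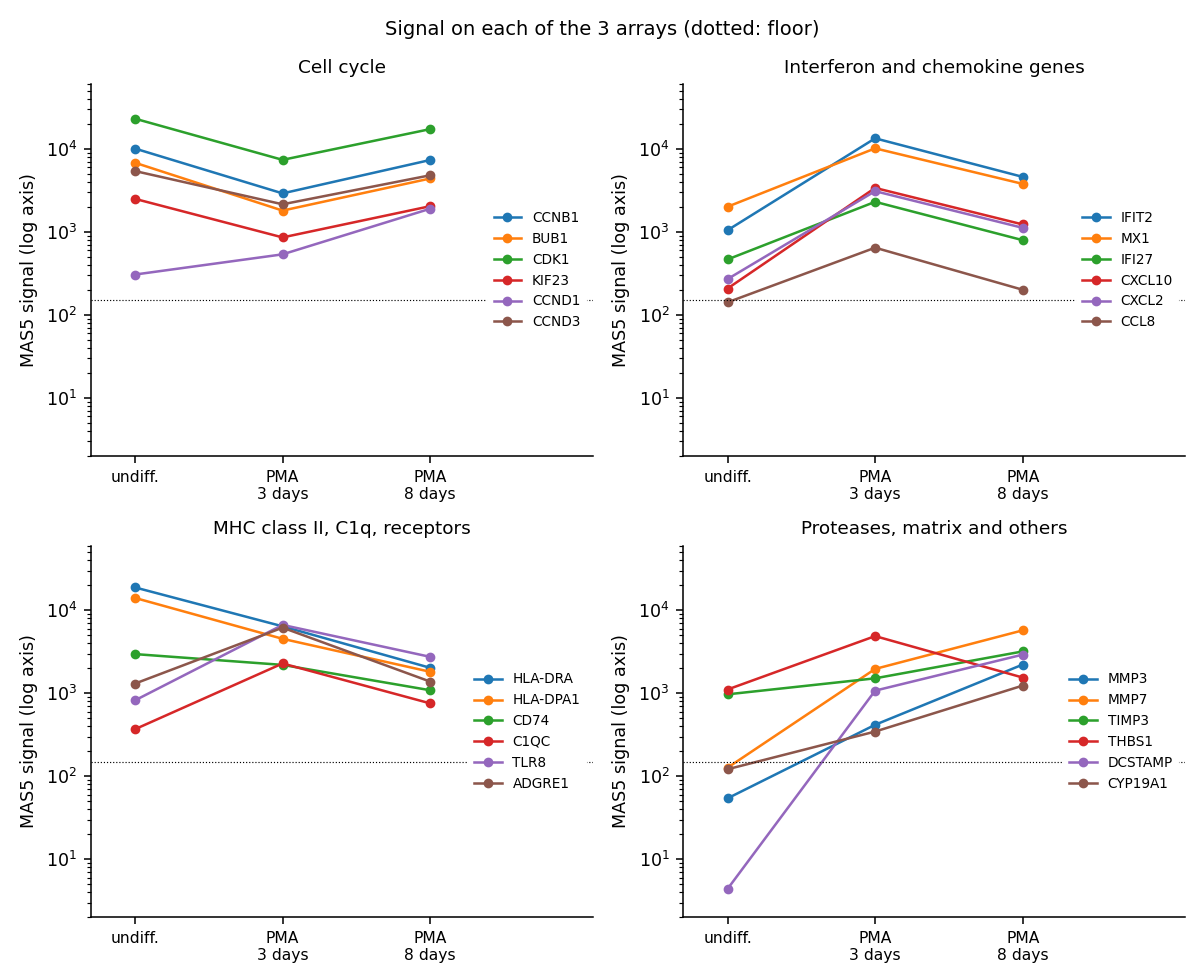
Signals on the 3 arrays, on a log axis, for genes of the cell cycle, of interferon and chemokine responses, of antigen presentation and recognition, and of proteases and matrix; lines join the arrays of a gene and the dotted line is the floor of 149.8. Mitotic genes dip at 3 days, interferon and chemokine genes peak there, HLA-DRA and HLA-DPA1 step down on each PMA array, and MMP3, MMP7 and DCSTAMP step up on each.

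Genes of MHC class II, which present peptides to helper T cells, had ratios below 0 in 12 of 15 tested. Of the 15, 4 were called lower (26.7%, against 0.958% of all genes tested) and none higher, and the median log2 ratio was -0.607. Under the poly-A scaling the median was -0.380, and of 14 tested 2 were lower and 1 higher. The list as a whole stood near its undifferentiated level, with medians of -0.038 at 3 days and -0.063 at 8 days. On these arrays 8 and 9 of the 15 were below that level. HLA-DRA, the alpha chain of HLA-DR, had 18887, 6415 and 2028 (-1.66), with a second probe set at -0.95. HLA-DPA1 had 14108, 4536 and 1817 (-1.32), although its 3 probe sets ran from -1.32 to -0.04. For both, the 3-day signal was already below the undifferentiated one and the 8-day signal was lower again. HLA-DMB, which edits the bound peptides, had 1726, 1681 and 749 (-1.17), and CD74, the invariant chain that guides class II to the endosome, had 2969, 2200.0 and 1089 (-1.01); these stood near or moderately below their starting level at 3 days. HLA-DRB1 had 25338, 36317 and 25739 (-0.50), a probe set that related DRB genes may share. CIITA, the master regulator of the group, was dim at 126, 185 and 205 (0.15), and RFX5, which binds their promoters, was at 0.35. MHC class I genes had a median of -0.106 and no call.

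Among 20 tested complement genes, 3 were called lower (15%) and 1 higher (5%), against 0.958% and 1.37% of all genes tested. C1QC and C1QA, chains of the C1q molecule that tags debris for uptake, had 369, 2289 and 756 (-1.60) and 368, 1511 and 649 (-1.22). SERPING1, the C1 inhibitor, had 114, 453 and 173 (-1.39). These were high at 3 days and had come back most of the way at 8 days. VSIG4, a complement receptor of resident macrophages, went up instead, with 165, 545 and 1104 (1.02). The complement list as a whole had a median of -0.295, which was -0.002 under the poly-A scaling and 0.002 without probe sets that can match several transcripts.

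Among pattern receptors, 4 of 32 were called lower (12.5%) and 1 higher (3.12%), against 0.958% and 1.37% of all genes tested. TLR8, the endosomal sensor of single-stranded RNA, had 822, 6670.1 and 2749.9 (-1.28). The C-type lectins CLEC7A (dectin-1, a receptor for fungal glucan), CLEC4A and CLEC4E had 1040.4, 2554 and 1219, 261, 3463 and 1654 and 61.9, 361 and 176, each at a ratio between -1.07 and -1.04. CLEC2B, a ligand of a natural killer cell receptor, was higher at 738, 402 and 1416 (1.82). TLR2 at 10643, 9976 and 8107 (-0.30) and TLR4 at 1258, 989 and 989 differed by less. The median of -0.248 for this list turned to 0.046 under the poly-A scaling.

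Fc and ITAM-linked receptors had a median of -0.36 with 20 of 27 below 0. Of the 27, 2 were called, both lower (7.41%, against 0.958% of all genes tested). Under the poly-A scaling the median was -0.066 and no member was called. SIGLEC1 (sialoadhesin), a receptor that is itself interferon-responsive, had 605, 3355 and 1613 (-1.06), and PILRA, an inhibitory receptor, 613, 17288 and 8053 (-1.10). FCGR2A and FCGR2B, receptors for the Fc part of IgG, had ratios of -0.83 and -0.83, and their probe sets can share sequence. The formyl peptide receptors FPR1 and FPR3 had 837, 7759 and 4237 (-0.87) and 109.7, 7203 and 3551 (-1.02). SLAMF7 and CD48, receptors of the same family, were called lower at 88.4, 3282 and 1202 (-1.45) and 377, 4619 and 1955 (-1.24).

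Of 30 macrophage markers tested, VSIG4 was called higher (3.33%) and C1QC, C1QA, LGMN and SIGLEC1 lower (13.3%). Over all genes tested these shares were 1.37% and 0.958%. VSIG4, C1QC and C1QA also count in the complement list and SIGLEC1 in the Fc list. The median of the macrophage markers was -0.188, turning to 0.105 under the poly-A scaling. SPP1 (osteopontin) had 5195, 46906 and 60401 (0.36), GPNMB 5595, 55412 and 45572 (-0.28), and the M-CSF receptor gene CSF1R 1469, 8209.9 and 6801 (-0.27). The haemoglobin scavenger receptor CD163 had 218, 26654 and 15456 (-0.79) and the co-receptor CD14 849.8, 34195 and 22449 (-0.61): both stayed far above the undifferentiated array at 8 days without a 2-fold step down. LGMN, a lysosomal cysteine protease, had 532, 2719.6 and 1147 (-1.246) and was the only called gene among 41 of the lysosome list. CTSB, the cysteine protease cathepsin B, had 10952, 57455 and 55748 (-0.04), and the median of the lysosome list was -0.1, turning to 0.194 under the poly-A scaling.

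Monocyte markers were mostly below their undifferentiated level, 10 of 13 tested on each PMA array. Of the 13, 2 were called lower (15.4%, against 0.958% of all genes tested) and none higher. The median log2 ratio was -0.607, with medians over undifferentiated cells of -1.05 at 3 days and -1.74 at 8 days. Under the poly-A scaling the median log2 ratio was -0.314 and none of the 13 was called. S100A12, an alarmin of circulating monocytes, had 9001, 3123 and 1468 (-1.09), and VCAN (versican) 25970.0, 4456 and 2028 (-1.14), in which all 5 probe sets were below 0. S100A8 had 50595, 25328 and 14772 (-0.78), S100A9 38822, 18816 and 10572 (-0.83) and LYZ (lysozyme) 62439, 36591 and 23242 (-0.66). In each of these 5 genes the order was undifferentiated, then 3 days, then 8 days. Other markers of the list had another order: CX3CR1, the fractalkine receptor, had 9779, 2329.9 and 3181 (0.45), CCR2, the receptor for CCL2, 20869, 468 and 541 (0.21), and CD14, given above, was far over its undifferentiated signal on both PMA arrays. Of the 13 ratios, 4 were above 0. Other S100 genes went apart: S100B had 214, 15944 and 6796 (-1.23) and S100P 736, 209 and 547 (1.39).

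ADGRE1, the human homologue of the mouse macrophage marker F4/80, had the largest fall of the 13051 genes tested. Its signals were 1309, 6182 and 1384 (-2.16, 1 probe set), so that the 8-day cells were back near the undifferentiated level. GGTA1, the inactive human form of an alpha-galactosyltransferase gene, had the same shape at 255, 1092 and 292 (-1.90), and so did THBS1 (thrombospondin 1), a matrix glycoprotein that binds CD36, at 1111, 4891 and 1548. The 3 probe sets of THBS1 above the floor on both PMA arrays ran from -1.66 to -1.04. RNASE1, a secreted ribonuclease, had 758, 15215 and 5112 (-1.57) and stayed well above its starting level. KCNK6, a potassium channel, had 1542, 1363 and 466 (-1.55) and was low at 8 days alone.

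The largest rise was that of a secreted protease. MMP3 (stromelysin 1), which cleaves matrix proteins and activates collagenases, had signals of 54.2, 418 and 2221 (2.41). MMP7 (matrilysin) had 127, 1966 and 5738 (1.54). Both were higher on each successive array. TIMP3, an inhibitor of these enzymes, had 972, 1516 and 3197 (1.08), with all 4 probe sets from 1.08 to 1.64. No other of the 24 tested members was called, so 12.5% were higher, against 1.37% of all genes tested. The interstitial collagenase gene MMP1 had 60.8, 3996 and 7536 (0.92) and the inhibitor TIMP1 9284, 24460.0 and 43831 (0.84), while MMP9 at 1765, 66826 and 72969 (0.13) and MMP12 at 57.8, 8913 and 10415 (0.23) had most of their gain by 3 days. ADAMTS8, a matrix protease outside the list, had 30.1, 608 and 1973 (1.70). The list's median of 0.146 ranged from -0.015 to 0.458 over the alternative processings.

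Of 28 matrix protein genes tested, THBS1 and VCAN were called, both lower (7.14%, against 0.958% of all genes tested). FN1 (fibronectin) had 333, 35010.0 and 45488 (0.38), COL6A3 92.5, 13938 and 17588 (0.34) and SPARC, a collagen-binding glycoprotein, 106, 4144 and 2114 (-0.97). Integrin and adhesion genes had a median of 0.194 with 26 of 40 above 0, where 54.7% of all genes tested were. TLN2, which links integrins to actin, had 93.5, 166 and 391 (1.23), with a second probe set at 0.58. ITGA7 had 917, 95.5 and 379, under the floor at 3 days, with a second probe set at -0.03. Actin, myosin and tubulin genes had 34 of 42 above 0, a median of 0.144 and no call.

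A few genes of lipid handling, clotting and cell fusion rose. In their lists 2 of 36 genes of lipid uptake, storage and efflux were called, both higher (5.56%, median 0.024), as were 1 of 15 of the coagulation list (6.67%, median 0.013) and 1 of 11 osteoclast markers (9.09%, median -0.026). The signs of these 3 medians changed in at least 1 alternative processing. Over all genes tested 1.37% were called higher, and the calls here rest on 1 or 2 genes per list. The lowest members of the lipid and osteoclast lists, FABP3 at -0.999 and OSCAR at -0.964, lay just short of 2-fold lower. LPL (lipoprotein lipase), which frees fatty acids from lipoproteins, had 1905, 6725 and 14280.0 (1.09), with both probe sets alike. MYLIP, the ligase that degrades the LDL receptor, had 4930.2, 369 and 927 (1.33), and the other probe sets above the floor on both PMA arrays gave 0.69 and 0.68. TGM2, a transglutaminase, had 130.0, 629 and 1474 (1.23). F3 (tissue factor), which starts coagulation, had 1993, 765 and 1758 (1.20) and at 8 days was near the undifferentiated signal. DCSTAMP, a membrane protein needed for the fusion of osteoclasts and giant cells, had 4.39, 1077 and 2926 (1.44). Its companion ATP6V0D2 had 166, 463 and 735 (0.67), and the osteoclast protease gene CTSK 854, 18852 and 12514 (-0.59).

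Other large rises came from genes of varied function. CYP19A1 (aromatase), which converts androgens to oestrogens, had 122, 346 and 1239 (1.84). HOPX, a homeodomain protein that does not bind DNA, had 17.6, 1642 and 4735 (1.53). GNLY (granulysin), an antimicrobial protein of cytotoxic lymphocytes, had 138, 1296 and 3359 (1.38). Each of these was off or dim in undifferentiated cells and higher on each PMA array. RADX, which acts at replication forks, had 33.6, 224 and 1140.2 (2.35). A further set had dropped by 3 days and was higher again at 8 days: SLC6A8, the creatine transporter, had 4001, 486 and 1454 (1.58), ATAD3B, a mitochondrial membrane ATPase, 1867, 334 and 1104 (1.72), and CSPG4 428, 162 and 546 (1.75). CD82, a tetraspanin, had 914, 984 and 2769.6 (1.49), and its second probe set 476, 788 and 1185 (0.59), short of 2-fold.

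Regulators of signalling showed a few opposed changes. Of 24 tested RGS and dual-specificity phosphatase genes, 3 were called higher (12.5%) and 1 lower (4.17%), against 1.37% and 0.958% of all genes tested. RGS16 and RGS13, which shorten G protein signals, had 728, 282 and 721 (1.35) and 28.1, 685 and 1701 (1.31). DUSP7, a phosphatase that acts on ERK, had 4565, 1894 and 4166 (1.14), while DUSP1 had 354, 7186 and 4128 (-0.80). The kinase gene PRKCE, a target of PMA itself, had 488, 334 and 158 (-1.09) and was the only called gene of 21 in the protein kinase C list, where PRKCA had 0.58, PRKCB 0.12 and PRKCD -0.24. None of 30 immediate early genes was called, which at the shares of all genes tested is common for a list of that size. FOS had 1506, 3240.0 and 2236 (-0.54), JUN 6921, 11005 and 10220.0 (-0.11) and EGR1 567, 353 and 469 (0.41). Among myeloid transcription factors GFI1, a transcriptional repressor of myeloid progenitors, was higher at 6206, 113 and 349 (at least 2.33-fold, being under the floor at 3 days) and ID3 lower at 374, 811 and 399 (-1.02). The inhibitor of pyruvate dehydrogenase PDK4 had 894, 8884 and 3267 (-1.44), the only call among 27 glycolysis genes, whose median was 0.237.

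Further large ratios came from genes of varied function, some of them close to the floor. RNF128, a ubiquitin ligase, had 21.1, 183 and 543 (1.57), SHROOM2, an actin-binding protein, 159.7, 188 and 519 (1.46), the membrane protein gene TM4SF1 104, 172 and 472 (1.46) and the pseudogene OR7E47P 19.5, 173 and 477 (1.46); all 4 were at or near the floor except at 8 days. CSPG5, a proteoglycan, had 913, 157 and 463 (1.56), a drop at 3 days with a partial return. In the other direction the antisense RNA GAS6-AS1 had 659.8, 567 and 256 (-1.15), low at 8 days alone. SIPA1L3 had 559.9, 545 and 189 (-1.53), but its second probe set had 556, 323 and 287 (-0.17). TBL1X, part of a corepressor complex, had 1662, 563 and 229.5 (-1.29), less on each successive array. TMEM47, a membrane protein of cell junctions, had 652, 2776 and 985 (-1.49), and DUSP16 21.5, 438 and 218 (-1.002), both highest at 3 days.

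For 47 genes called higher and 16 called lower the other PMA array was at the floor, and the ratio is a bound. ANHX had 91.6, 138 and 528, CLDN19, a tight junction protein, 125, 143 and 477 and LRP3, a receptor of the LDL receptor family, 883, 148 and 448, which makes them at least 3.53-fold, 3.19-fold and 2.99-fold higher at 8 days. PEMT, which makes phosphatidylcholine, had 185, 410.3 and 118, and FHAD1 389.9, 358 and 79.1, at least 2.74-fold and 2.39-fold lower. BICDL1 was at least 3.05-fold higher by 1 probe set (445, 104 and 457) and had -0.32 by the other. The pseudogene ELK2AP had 311, 121 and 511, the zinc finger gene ZNF696 545, 387 and 135, and the antisense RNAs ADIRF-AS1 and TNFRSF14-AS1 309.6, 387 and 149 and 342, 367 and 108. TMEM120B had 122, 125 and 489 and so was at least 3.26-fold higher at 8 days. STAP1, an adaptor protein of B cells and myeloid cells, had 352, 370.3 and 129.7 and was at least 2.47-fold lower; its second probe set was near the floor on both PMA arrays.

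Some lists held 1 to 3 calls. Over all genes tested 1.37% were called higher and 0.958% lower. AEN, a p53-induced nuclease, had 485, 162 and 467 (1.52) and was the only called gene of 18 p53 targets (median 0.025). AKR1C1, an aldo-keto reductase and the only call of 23 NRF2 targets (0.062), had 773, 115 and 341 and so was at least 2.28-fold higher. NUPR1, a stress-induced chromatin protein, was the only call of 32 amino acid response genes (-0.096), at 1264, 4243 and 1756 (-1.27). PLA2G7, which degrades platelet-activating factor, had 344, 1614 and 717 (-1.17), the only call of 17 eicosanoid genes (0.061). MT1HL1, a metallothionein-like gene, had 11531, 2949 and 1206 (-1.29), and the other 16 genes of that list were not called, as in MT2A at 10968, 4073 and 5148 (0.34). Of 20 tested markers of M2-type activation, TGM2 was called higher (5%) and CLEC7A and CCL24 lower (10%), with a median of -0.407. Of 18 tested markers of M1-type activation, CXCL10, CXCL11 and SLAMF7 were called lower (16.7%) and none higher. The M1 median of -0.181 turned to 0.096 under the poly-A scaling. These calls are not separate results: CXCL10 and CXCL11 also count in the interferon gamma and CXC lists. CLEC7A also counts among pattern receptors and CCL24 among CC chemokines. Genes of progenitors and primary granules, low on both PMA arrays (medians over undifferentiated cells of -3.44 and -3.35), had only GFI1 called, and MYB, a progenitor transcription factor, had 32633, 696 and 1074 (0.63).

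Many lists held no called gene. Over all genes tested 1.37% were called higher and 0.958% lower, so lists of this size will often hold none. No member was called among 28 tested genes of oxidative phosphorylation (median 0.161), 18 of the V-ATPase (0.02), 24 cytoplasmic ribosomal proteins (-0.013), 17 of cholesterol synthesis (0.041), 19 of the unfolded protein response (-0.186), 15 heat shock proteins (0.173), 13 histones (-0.17) or 28 of the BCL2 and apoptosis list (0.076). The sign of the medians for the V-ATPase, ribosomal protein, cholesterol, unfolded protein, histone and apoptosis lists changed in at least 1 alternative processing. In the unfolded protein response list 18 of 19 ratios were below 0 and its median turned to 0.108 under the poly-A scaling. Scavenger receptors had no call either, but 12 of 15 ratios were below 0, with a median of -0.456 that stayed between -0.482 and -0.163.

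**Figure D5:**
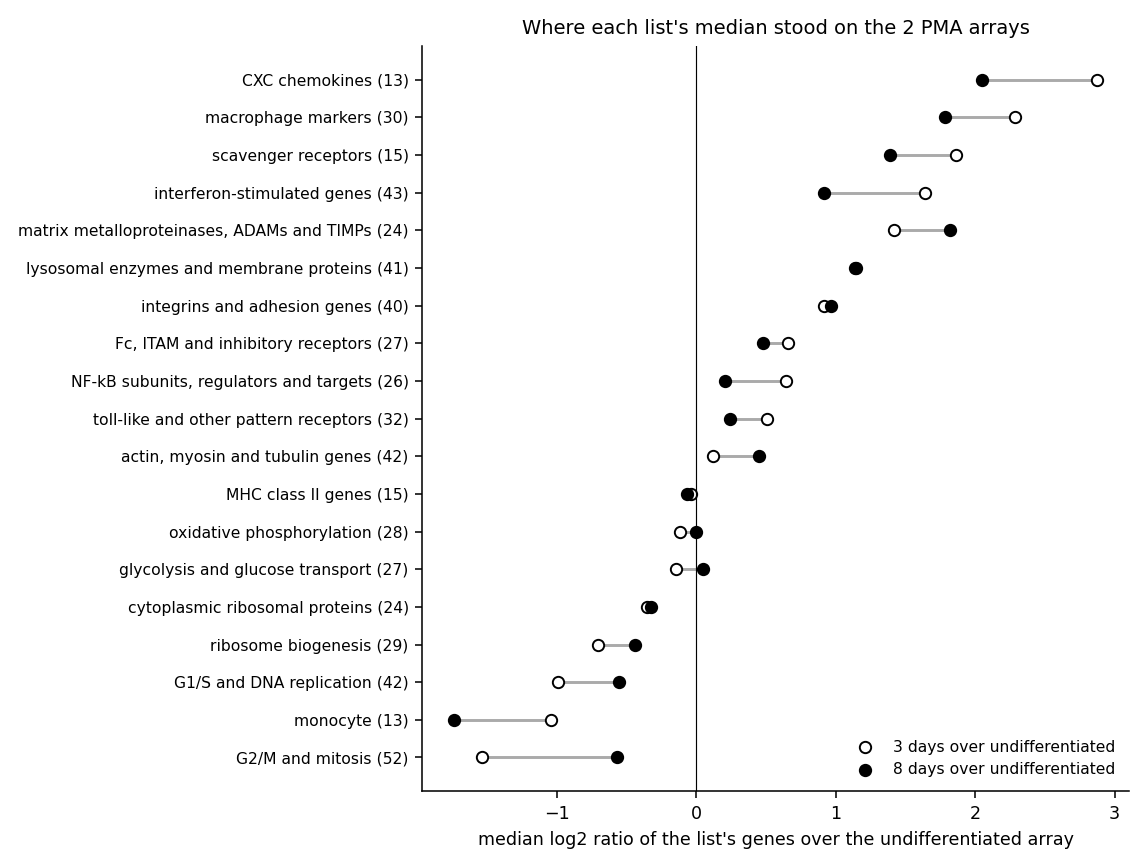
For each gene list (number of tested genes in brackets), the median log2 ratio over the undifferentiated array, which both points share, is plotted for the 3-day array (open circle) and the 8-day array (filled circle). The G2/M list moved from -1.54 to -0.57 and the interferon-stimulated list from 1.64 to 0.91, towards the starting level, while monocyte markers moved from -1.05 to -1.74, away from it.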

How the data were processed

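RNA of undifferentiated THP-1 cells and of both PMA-treated cultures was measured on 1 human expression array each. The deposited values are intensities on a linear scale, made by the authors with MAS5, per the submitters' processing notes. MAS5 scales arrays to a common trimmed mean, so a difference in total RNA per cell cannot be seen. Its version and settings are not given in the sources used here. Precision is limited by the number of arrays, 1 per condition, and no test was made.

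Manufacturer's control probe sets were left out. Of the rest, 41091 probe sets had 1 gene in the platform annotation, 1801 had several and 11721 had none, and only the first kind was named. RefSeq (GRCh38.p14) held 41037 of them by Entrez ID, with 0 symbols changed. Signals below 149.8 (the 50th percentile of all values) were raised to it, a probe set was tested when above it on at least 1 PMA array, and the brightest probe set stood for its gene. A call needed 2-fold. Members were 62 lists, 55 by role and 7 of cell types, with 1480 distinct genes. A gene could stand in several lists. The same call then counts in each, as for VCAN in the monocyte and matrix lists. The members and lists were chosen with earlier results of these data known.

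Genes named were the 12 largest ratios in each direction with all probe sets going the same way, the 6 brightest in each direction with the other array at the floor, up to 4 called members of each list, up to 5 in each direction that turned back, went on or moved late relative to undifferentiated cells, and list members given as values. The promoter windows were searched after the values were seen. Alternatives were the 40th and 60th percentile as floor, quantile normalization, centring, scaling to poly-A controls, the median or second-brightest probe set, and leaving out _s_at and _x_at probe sets. The code was tested on simulated data. Values were computed in Python 3.11.15 (pandas 2.3.3, numpy 2.4.6, scipy 1.17.1) and drawn with matplotlib 3.10.9.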

Additional observations from a re-analysis of the deposited data

How the results depend on the processing

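No paired analysis was possible because each condition has 1 array. The 179 genes called higher became 375 with the floor at the 40th percentile, 97 at the 60th, 525 with poly-A scaling and 86 by the second-brightest probe set. The 125 called lower became 191, 42 and 54 at the 40th percentile, with poly-A scaling and by the second-brightest probe set. The floor and the second-brightest setting also changed how many genes were tested (15048, 11152 and 6295 in place of 13051). Higher calls made up 58.9% of calls, and 92.6% with poly-A scaling. The 369 probe sets called higher became 893, 168, 1055 and 213 with the floor at the 40th and 60th percentile, with poly-A scaling and without _s_at and _x_at probe sets. The 280 called lower became 542, 161 and 80 under the first 3 of these. Of the medians farther from 0 than the spread between probe sets of a gene, that of the complement list reversed, to 0.002, without _s_at and _x_at probe sets. By the second-brightest probe set BICDL1 reversed to -0.324 and ITGA7 to -0.027. Over 62 lists and these alternatives, 435 list medians moved by less than the spread between probe sets and 60 by more; 39 of the 62 lists, most with medians near 0, had medians of both signs over the settings. Of 113 called genes named here, 82 passed 2-fold the same way with poly-A scaling, 86 with the floor at the 60th percentile and 21 of 48 with a value by the second-brightest probe set. Where no construction shows it, the cause was not tested. Ratios of dim genes are limited by signal over background.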
